A study of Caenorhabditis elegans with 11 samples.

Results

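GRH bins are 1 kb stretches of the Caenorhabditis elegans genome that the deposited coverage table marks with the word GRH. There were 215 of them among 100257 bins, or 0.214% of the genome in the table. The abbreviation has been used in the field for heterochromatin that depends on nuclear RNAi in the germline, and GRTS, a second mark in the same table, for transcriptional silencing by that pathway. Of the 215 GRH bins, 25 also carried the GRTS mark and 190 did not, and another 166 bins carried GRTS without GRH. The rule behind both marks is not given in the sources used. Since libraries like these may have gone into it, the direction of a difference at marked bins is not independent evidence. The heterochromatin part of the name could not be checked, because the 3 libraries of trimethylated histone H3 lysine 9 (H3K9me3) were not analysed here.

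In nuclear RNAi, small RNAs guide an Argonaute protein to transcripts that are still being made, and the locus then loses transcription and gains methylated histone H3 lysine 9. HRDE-1 is the germline Argonaute of this pathway in C. elegans and is needed for silencing to be inherited. MET-2 and SET-25 are methyltransferases of H3 lysine 9, and SET-32 is a SET domain protein of the same general class. RNA polymerase II (Pol II) makes messenger RNA, so its density on DNA reports how much a stretch is being transcribed.

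Pol II was measured by chromatin immunoprecipitation and sequencing (ChIP-seq) in young adult hermaphrodites fed on E. coli OP50, with 1 library for each of 8 genotypes. The mutants were hrde-1(tm1200), set-32(red11) and met-2(n4256) set-25(n5021), each alone. Their combinations were set-32 hrde-1, then met-2 set-25 hrde-1 and also set-32 met-2 set-25, and lastly hrde-1 added to the mutant set-32 met-2 set-25, called the full combination here. N2 is the wild-type strain. The series is titled for the role of SET-32 in starting nuclear RNAi silencing over generations. No genotype had a replicate, so each mutation was compared over 4 libraries that carried it and 4 that did not. The samples are bulk chromatin of young adults, in which fewer germline cells and less Pol II per germline cell cannot be told apart. The number of cultures behind the libraries is not in the labels.

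Values are RPKM as deposited by the authors, that is reads relative to the length of the bin and to all mapped reads of the library. Estimated depth lay between 3.0 and 6.6 M reads, so a bin at 10 RPKM had a counting error of 12.3% to 18.2%. In 2 libraries the reads were spread more evenly over the genome than in the other 6. The 90th percentile of bins divided by the 10th was 4.31 for the full combination and 3.72 for set-32 met-2 set-25, against 7.63 to 24.96 elsewhere. Both libraries enter every limma comparison below, and both carry the set-32 and the met-2 set-25 mutations. Bins are named by the position in the deposited table, whose genome build none of the sources used here names, and no gene is assigned to them.

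GRH bins lay on all 6 chromosomes, with few on X. There were 55 on I, 40 on II, 32 on III, 49 on IV, 36 on V and 3 on X. That is 0.365% of the bins of chromosome I, the highest share, and 0.017% of those of X, the lowest. With each autosome divided into 3 equal parts, 158 members lay on the outer parts, or arms, and 54 in the centres. The arms thus held 74.5% of autosomal GRH bins, against 66.7% of all autosomal bins. Neighbouring members formed 104 unbroken runs, of which 58 were single bins and 4 reached 7 bins. A GRTS bin was present in 16 of the runs, and all bins were GRTS in 9 of these. Of the 190 members without GRTS, 40 were no more than 5 kb from a GRTS bin, and the median distance was 234 kb.

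These bins were not devoid of Pol II in wild type. In N2 the median GRH bin had 13.4 RPKM, which is the 77.5th percentile of all bins, and 41 members were above the 90th percentile of all bins. The 2 kinds of member started from different levels. In N2 the 25 GRTS members had a median of 7.62 RPKM and the 190 others of 14.5 RPKM. The 5 members with most Pol II in N2, between 40.8 and 67.3 RPKM, were all without GRTS. Among the 5 with least, between 1.62 and 2.70 RPKM, were GRTS bins at IV:527001-528000 and II:14985001-14986000.

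Loss of HRDE-1 was accompanied by more Pol II over many GRH bins and by less at none that passed the test. The median GRH bin had 26.8 RPKM in hrde-1, against 13.4 RPKM in N2. It had 27.2 RPKM in set-32 hrde-1, against 15.5 RPKM in set-32. All 4 libraries without HRDE-1 had a higher median than all 4 with it. In the met-2 set-25 background the median was 25.03 RPKM in met-2 set-25 hrde-1, against 9.49 RPKM in met-2 set-25. The difference was smallest between the 2 evenly covered libraries, with 18 RPKM in the full combination, against 12.9 RPKM for set-32 met-2 set-25. Over the libraries this median averaged 24.3 ± 4.27 RPKM without HRDE-1 and 12.8 ± 2.48 RPKM with it (SD, n = 4 each). For bins with no mark the corresponding averages were 4.96 ± 1.47 and 5.33 ± 1.53 RPKM (SD, n = 4 each).

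**Figure D1:**
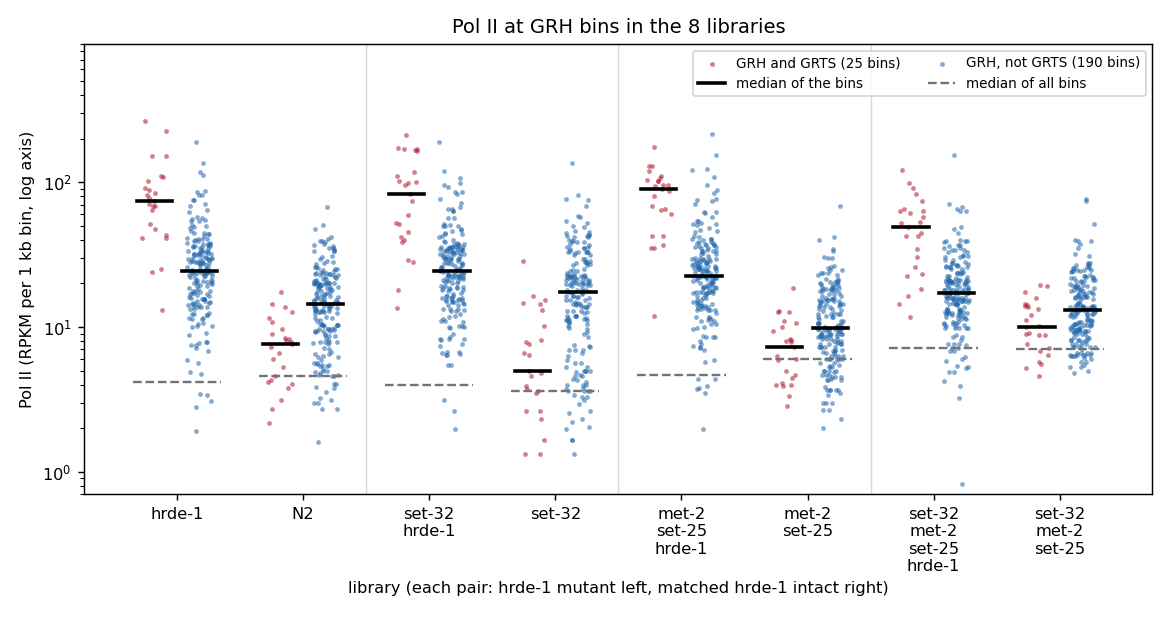
Pol II in RPKM at GRH bins (log axis) in each of the 8 libraries, with each hrde-1 mutant left of its matched library, for members with and without the GRTS mark, with full lines for their medians and dashed lines for the median of all bins. The GRTS members have medians of 48.9 to 89.4 RPKM in the libraries without HRDE-1 and of 4.94 to 10.1 RPKM in those with it, while for the other members the ranges are 17.3 to 24.3 and 9.79 to 17.4 RPKM.

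Each bin was tested over the 8 libraries with limma on log2(RPKM + 1), with the 3 mutations as additive terms. All 215 members passed the minimum of 2 RPKM. With hrde-1 loss, 97 rose and 0 fell at a Benjamini-Hochberg adjusted p under 0.05, the threshold used throughout. Over all 100027 bins tested, 0.852% rose and 0.0800% fell. At an unadjusted p under 0.05, 136 members were higher and 3 lower, against 2281 and 2610 of all bins tested. The median log2 difference of the members was 0.75 (quartiles 0.26 and 1.39, range -0.55 to 4.05), beside -0.04 for all bins, and 190 members were above 0. Without an intensity trend in limma, 43 of the 215 passed.

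The members that did not pass were not silent bins. The 118 of them had a median log2 difference of 0.28, and 93 lay above 0. Their levels were closer together between genotypes, with a median of 20.9 RPKM over the libraries without HRDE-1, against 17.4 RPKM over those with it. For the 97 that passed, the medians were 31.4 RPKM without HRDE-1 and 9.73 RPKM with it. These levels make up the difference that was tested, so the 2 sets of medians are a description only. In 93 members all 4 hrde-1 mutant libraries were above all 4 others, which was so for 1.21% of all bins. The reverse order occurred in 0 members and in 0.838% of all bins.

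**Figure D2:**
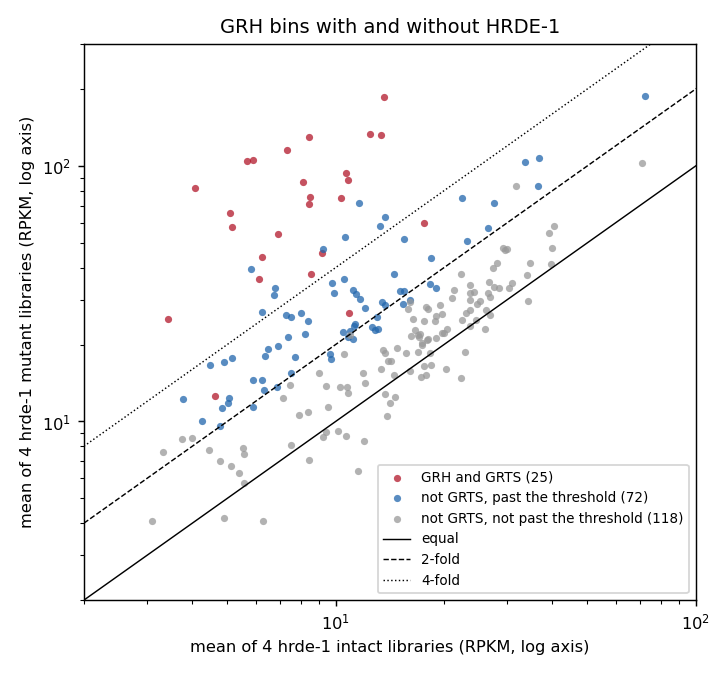
Mean Pol II of the 4 libraries without HRDE-1 (y axis, RPKM, log scale) against the mean of the 4 with HRDE-1 (x axis, RPKM, log scale), 1 point per GRH bin, with lines for equal, 2-fold and 4-fold values. The 25 GRTS members all rose and most lie above the 4-fold line, and the 118 members that did not pass lie mostly between the equal and 2-fold lines.

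Whether a GRH bin was also GRTS went with the size of the difference. All 25 GRTS members rose, with a median log2 difference of 3.19, and 72 of the 190 others rose, with a median of 0.58. The level of the GRTS members, as a median per library, averaged 74.0 ± 17.8 RPKM without HRDE-1 and 7.49 ± 2.10 RPKM with it (SD, n = 4 each). For the members without GRTS it averaged 22.1 ± 3.31 RPKM without HRDE-1 and 13.7 ± 3.17 RPKM with it (SD, n = 4 each). The GRTS bins outside the GRH list had a median difference of 2.54, and 162 of 166 rose. The GRTS mark may itself rest on such a comparison, and these differences between classes of bins were not tested.

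Some of the members that rose without the mark lay close to a GRTS bin. Of the 40 members within 5 kb of a GRTS bin, 26 rose, with a median of 1.00. Of the 150 farther away, 46 rose, with a median of 0.48. Higher Pol II was therefore seen both beside GRTS bins and at GRH bins with no GRTS bin near. Counted by run, 48 of 104 runs held at least 1 bin that rose, among them 32 of the 88 runs without a GRTS bin.

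The largest difference was on chromosome IV, at IV:4125001-4126000, a GRTS bin. It had 91.9 RPKM for hrde-1, 95.4 for set-32 hrde-1, 80.2 for met-2 set-25 hrde-1 and 61.2 for the full combination, against 3.11 for N2, 4.78 for set-32, 2.83 for met-2 set-25 and 5.59 for set-32 met-2 set-25. The groups were far apart, and the log2 difference was 4.05 ± 0.20 (SE, limma adjusted p 2.6e-12). Close by, at IV:4130001-4131000, the libraries without HRDE-1 averaged 129.5 ± 34.1 RPKM and those with it 8.46 ± 1.52 RPKM (SD, n = 4 each). Its neighbour at IV:4131001-4132000 had a log2 difference of 3.80. All 10 members with the largest differences were GRTS bins.

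A stretch on chromosome I reached the highest Pol II density of the list. The bin at I:4460001-4461000 had 264 RPKM for hrde-1, 213 for set-32 hrde-1, 174 for met-2 set-25 hrde-1 and 90.7 for the full combination, against 14.3 for N2, 16.5 for set-32, 9.32 for met-2 set-25 and 14.4 for set-32 met-2 set-25. The difference was 3.60 ± 0.25 (log2, SE, limma adjusted p 2.11e-10), and the full combination was again the lowest of the mutants. It lies inside 1 of the 4 longest runs, I:4457001-4464000, in which 5 of 7 bins were GRTS and all 7 rose. The mean over that run was 130.1 RPKM in hrde-1, against 12.3 RPKM in N2.

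A pair of bins on chromosome V could not be told apart as separate loci. V:8870001-8871000 had 74.5 RPKM for hrde-1, 173 for set-32 hrde-1, 107 for met-2 set-25 hrde-1 and 63.5 for the full combination, against 8.28 for N2, 3.73 for set-32, 3.94 for met-2 set-25 and 6.82 for set-32 met-2 set-25. The values at V:8828001-8829000 were within 4.7% of these in every library. The log2 differences were 3.93 and 3.91. None of the values of either bin up to 60 RPKM fell on a whole number of reads, and the treatment of reads that match several places is not stated in the sources used.

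Fractional reads were common over the list. Among values up to 60 RPKM, 53.8% at GRH bins lay within 0.1 read of a whole number, against 81.1% at bins with no mark. In bins with a mean of 10 to 60 RPKM the shares were 51.2% at GRH bins and 74.7% at unmarked bins. The hrde-1 difference was of like size in both kinds of member. Of the 125 members with at least 50% whole values, 56 rose and the median log2 difference was 0.77, and of the 89 below 50%, 40 rose and the median was 0.69. The remaining member had no value up to 60 RPKM.

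Not every large difference was at a GRTS bin. The largest on chromosome III was at III:6646001-6647000, without GRTS, with 22.6 RPKM for hrde-1, 83.2 for set-32 hrde-1, 21.4 for met-2 set-25 hrde-1 and 31.3 for the full combination, against 6.48 for N2, 2.31 for set-32, 5.66 for met-2 set-25 and 8.91 for set-32 met-2 set-25. All 4 mutants were higher, set-32 hrde-1 well beyond the others, and the log2 difference was 2.44 ± 0.31 (SE, limma adjusted p 9.35e-06). The run V:5472001-5479000 held no GRTS bin, and all 7 of its bins rose, with a median of 2.07. Its mean was 41.3 RPKM in hrde-1, against 13.5 RPKM in N2. In another run without GRTS, II:11171001-11178000, 6 of 7 bins rose, with a median of 1.11. The remaining long runs, II:12740001-12747000 and I:2629001-2635000, each held 1 GRTS bin, and all of their 7 and 6 bins rose, with medians of 1.52 and 0.92. Runs did not always move as a whole, since among the 46 runs of more than 1 bin, all bins rose in 12, some in 13 and none in 21. By length, 23 of the 58 single bins rose, 24 of 63 members of runs of 2 or 3 bins, and 50 of 94 members of runs of 4 or more, with median log2 differences of 0.52, 0.59 and 0.89.

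The 10 members with the smallest differences were all without GRTS, and none of them passed the test. V:12690001-12691000 had 2.80 RPKM for hrde-1, 3.14 for set-32 hrde-1, 3.49 for met-2 set-25 hrde-1 and 6.85 for the full combination, against 5.67 for N2, 6.26 for set-32, 4.33 for met-2 set-25 and 8.91 for set-32 met-2 set-25. Each mutant was below its match, but the log2 difference was -0.55 ± 0.26 (SE, limma adjusted p 1). At I:4468001-4469000 the difference was -0.53, and this bin lies a few kb beyond the end of the run on chromosome I described above. The other 8 had log2 differences of -0.49 to -0.23.

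Chromosomes differed in how many members rose. On II 27 of 40 rose, with a median log2 difference of 1.06, and on V 20 of 36, with a median of 1.09. On I 24 of 55 rose (median 0.77), on IV 16 of 49 (0.38) and on III 10 of 32 (0.26). Without the intensity trend the counts were 12 on II, 10 on I, 6 on IV and 1 on III, and quantile normalization gave 15 on I. On each of these autosomes the share was above that of all bins of the chromosome, which lay between 0.545% on III and 1.45% on V. Members on arms had a median of 0.84, with 80 of 158 rising, and those in centres of 0.48, with 17 of 54 rising. The GRTS members, all of which rose, were spread unevenly over the autosomes, and the level in N2 differed too. In N2 the median member had 10.1 RPKM on II, 9.995 on V, 16.5 on I, 14.6 on IV and 19.6 on III. The counts by chromosome were adjusted for neither, and none of these differences between chromosomes was tested.

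The 3 members on X stood apart. None rose, and their largest log2 difference was 0.21, at X:214001-215000. That bin had 4.72 RPKM for hrde-1, 13.0 for set-32 hrde-1, 3.71 for met-2 set-25 hrde-1 and 5.38 for the full combination, against 5.13 for N2, 5.27 for set-32, 3.66 for met-2 set-25 and 6.44 for set-32 met-2 set-25. In all 3 bins set-32 hrde-1 was the highest library, with 13.0, 20.9 and 23.7 RPKM. The other 7 libraries were between 0.82 and 7.10 RPKM there.

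The 4 matched pairs, which differ in hrde-1 only, were read side by side by size and not tested. A member was counted where the log2 values differed by 1 or more and the higher library had 10 RPKM or more. By that rule 93 members were higher in hrde-1 than in N2 (0.873% of all bins) and 0 lower (0.911%). In set-32 hrde-1 against set-32, 79 were higher (0.991%) and 2 lower (0.178%). In met-2 set-25 hrde-1 against met-2 set-25, 121 were higher (1.58%) and 0 lower (1.73%). In the full combination against set-32 met-2 set-25, 49 were higher (0.747%) and 1 lower (0.584%). The direction was thus shared by all pairs, and the pair of evenly covered libraries had the fewest. The set-32 hrde-1 and met-2 set-25 hrde-1 pairs are each of libraries whose descriptions share a prefix, and the other 2 pairs are not.

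GRTS members met the rule in nearly every pair. Of the 25, 25 were higher in hrde-1 than in N2, 23 in set-32 hrde-1 than in set-32, another 25 in met-2 set-25 hrde-1 than in met-2 set-25, and 22 in the full combination than in set-32 met-2 set-25. The same counts among the 190 other members were 68, 56, 96 and 27. In all 4 pairs, 42 members were higher (0.288% of all bins), 22 of them GRTS bins and 20 not, and 74 were higher in 0 pairs. The full combination was the lowest of the 4 libraries without HRDE-1 in 152 of 215 members, against 19.7% of all bins. The share of all bins is not matched for level, and unmarked bins with more Pol II in N2 showed the same order. At 17.87 to 67.26 RPKM in N2 the full combination had a median of 18.9 RPKM, against 23.8 to 25.7 RPKM for the other hrde-1 mutants. At 9.50 to 17.86 RPKM it had 11.4 RPKM, against 12.7 to 13.2 RPKM. At 1.62 to 9.49 RPKM it was the highest, with 6.03 RPKM, against 2.97 to 3.33 RPKM. Whether even coverage accounts for the 152 members was not tested.

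**Figure D3:**
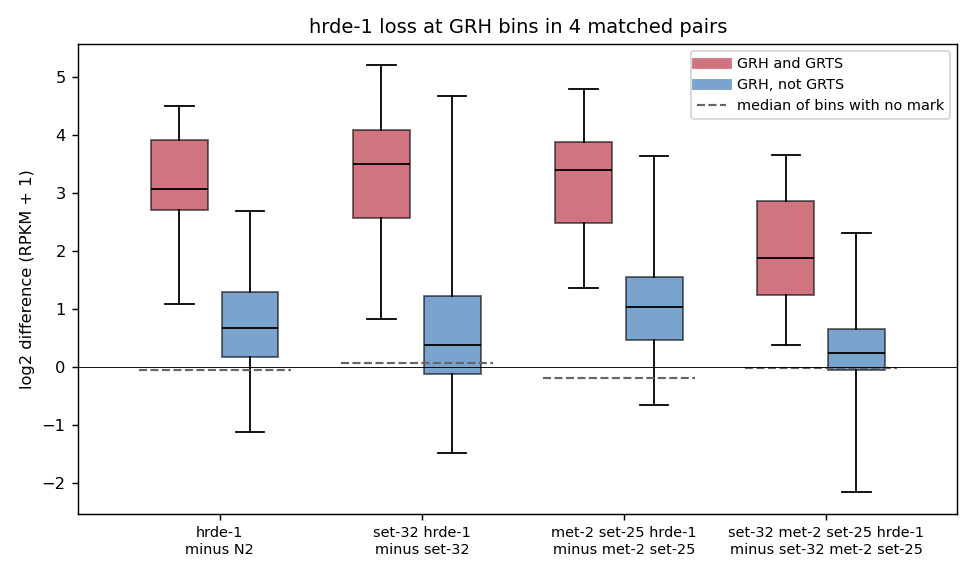
Log2(RPKM + 1) difference in Pol II between each hrde-1 mutant library and its matched library at GRH bins, as boxes of median and quartiles with whiskers over the whole range, and dashed lines for the median of bins with no mark. The medians of the GRTS members are 3.07 in the N2 background, 3.5 in set-32, then 3.40 with met-2 set-25 lost and 1.89 with all SET genes lost, and those of the others 0.67, 0.38, 1.03 and 0.24.

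Members that started low in N2 had the larger differences. The members were divided into 3 groups by their RPKM in N2, at 9.50 and 17.9 RPKM, and the hrde-1 difference was averaged over the 3 pairs that do not use N2. It had a median log2 value of 1.10 in the 72 lowest members, 0.70 in the 71 middle ones and 0.38 in the 72 highest. A difference of at least 1 was seen in 39, 25 and 14 of them. Among unmarked bins of the same N2 ranges the medians were -0.06, -0.01 and 0.02, and 0.645%, 0.555% and 0.351% reached 1.

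The GRTS members made up part of that gradient, since 18 of the 25 were in the lowest group, 7 in the middle group and 0 in the highest. Without them the medians were 0.85, 0.53 and 0.38, still falling from low to high. The levels reached without HRDE-1 did not fall in the same way. In met-2 set-25 hrde-1 the median member had 17.4 RPKM in the lowest group, 24.3 in the middle and 31.6 in the highest, against 5.55, 9.65 and 17.1 RPKM in met-2 set-25. The bin with the most Pol II in N2, V:10048001-10049000, had 190.8 RPKM for hrde-1, 188 for set-32 hrde-1, 217 for met-2 set-25 hrde-1 and 153 for the full combination, against 67.3 for N2, 76.1 for set-32, 68.2 for met-2 set-25 and 76.9 for set-32 met-2 set-25. The groups did not overlap, and its log2 difference was 1.36 ± 0.34 (SE, limma adjusted p 0.0455). That call was lost under 8 of the alternatives tried.

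**Figure D4:**
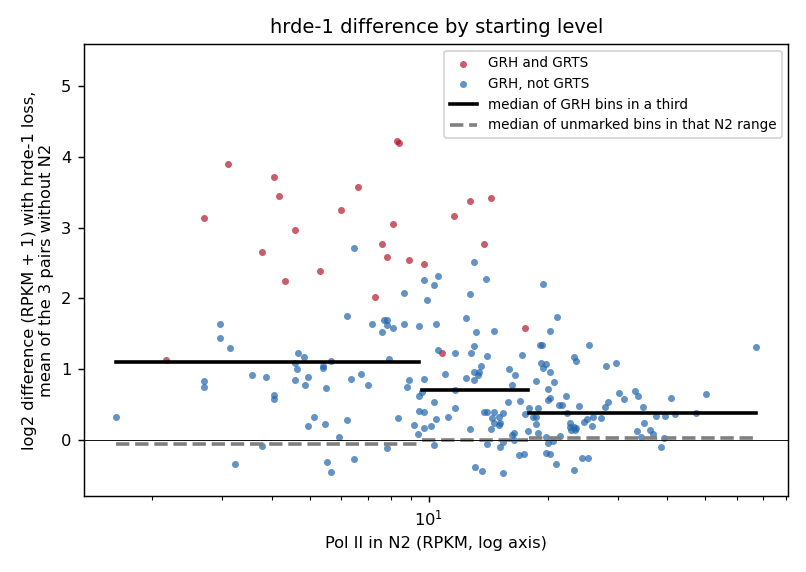
Difference with hrde-1 loss (y axis, log2(RPKM + 1), mean of the 3 pairs without N2) against Pol II in N2 (x axis, RPKM, log scale), 1 point per GRH bin, with the medians of the 3 groups as full lines and of unmarked bins in the same N2 ranges as dashed lines. The group medians are 1.10, 0.70 and 0.38 from low to high, and those of the unmarked bins lie close to 0.

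Higher Pol II without HRDE-1 was also seen in bins beside the marked ones. In bins 1 kb from the end of a run the median log2 difference was 0.47, and 61 of 198 rose. At 2 kb the median was 0.21 with 33 of 186 rising, at 5 kb 0.15 with 16 of 200, and at 10 kb 0.03 with 14 of 203. The share that rose was thus lower at each of these distances than inside the runs, and at 10 kb it was 6.90%, still above the 0.852% of all bins. Distance was counted from the end of each run separately, and bins nearer to another run were kept. A bin counted at 10 kb can therefore lie next to another run, and how far the difference reaches from a single run was not measured. Beside the runs that held a GRTS bin the median at 1 kb was 1.69, and 26 of 32 bins rose, 13 of the 32 being GRTS bins themselves. Beside the runs without one it was 0.38, and 36 of 168 rose. Only 1 bin fell among all the flanking bins, at 8 kb.

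**Figure D5:**
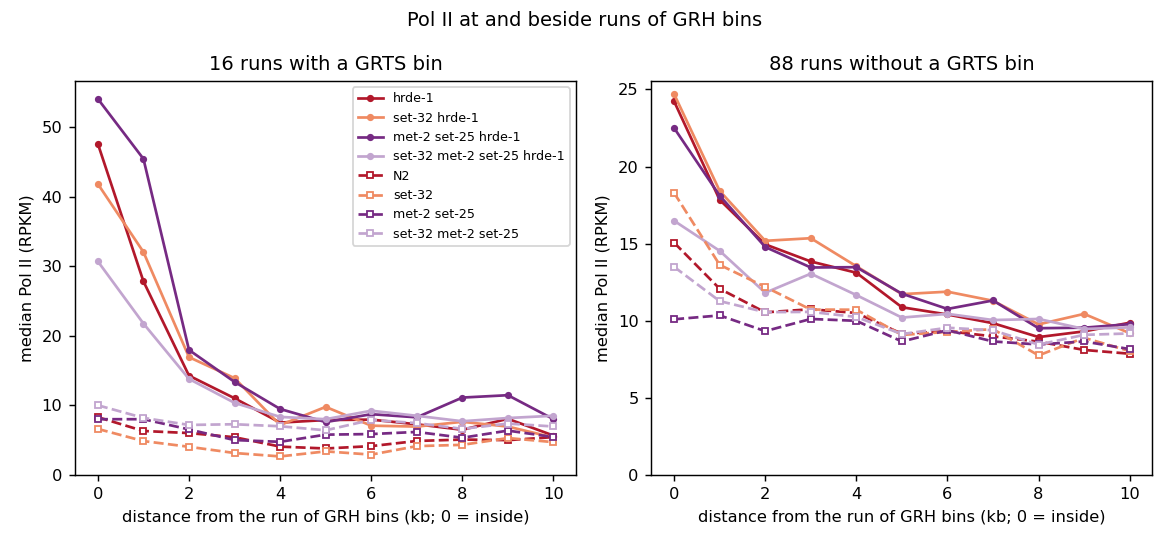
Median Pol II in RPKM (y axis) at 0 to 10 kb from a run of GRH bins (x axis, 0 being inside the run) in each library, with full lines for the 4 libraries without HRDE-1 and dashed lines for the 4 with it, for the 16 runs with a GRTS bin on the left and the 88 without one on the right. The full lines start at 30.7 to 54.03 RPKM on the left and at 16.5 to 24.7 RPKM on the right, and come close to the dashed lines by 10 kb.

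The set-32 term, averaged over the 4 backgrounds, left the list without a bin that passed the test. The set-32 mutant alone is a single library and was not tested against N2. With limma 0 members rose and 0 fell, against 0% and 0.00100% of all bins. At an unadjusted p under 0.05, 9 were higher and 8 lower, against 2040 and 2093 of the 100027 bins tested. The median log2 difference was -0.02, beside 0.07 for all bins. Averaged over libraries, the median GRH bin had 18.4 ± 6.25 RPKM without SET-32 and 18.7 ± 8.52 RPKM with it (SD, n = 4 each). The members with the largest positive estimates were I:10783001-10784000 and its neighbour I:10784001-10785000 (0.85 and 0.70), and X:255001-256000 (0.66). The largest negative ones were II:13247001-13248000, II:5099001-5100000 and II:13246001-13247000, at -0.71, -0.70 and -0.62, and all 6 had an adjusted p of 0.975.

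Read by pair, differences appeared in both directions. By the rule of size, 15 members were higher in set-32 than in N2 (0.510% of all bins) and 5 lower (1.17%). In set-32 met-2 set-25 against met-2 set-25, 16 were higher (0.670%) and 0 lower (1.01%). In the hrde-1 mutant background, 7 were higher in set-32 hrde-1 than in hrde-1 (0.353%) and 0 lower (0.110%). The largest count ran the other way, with 28 members lower (2.62%) and 0 higher (1.75%) when the full combination was set against met-2 set-25 hrde-1. Higher in both pairs with HRDE-1 were 5 members (0.0170% of all bins), and in both pairs without it 0 (0.0638%). This count was chosen after the values were seen, and none of the 5 was a GRTS bin. Libraries of both pairs with HRDE-1 differ in description prefix, so SET-32 loss and prefix cannot be told apart there. Only set-32 hrde-1 and hrde-1 share a prefix, and between them the 5 bins had log2 differences of -0.20 to 0.21.

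The 5 form 4 places: I:3150001-3151000, I:10784001-10785000, IV:10354001-10355000, and the neighbours IV:8397001-8398000 and IV:8398001-8399000. At I:10784001-10785000 Pol II was 52.4 RPKM in set-32, against 20.3 RPKM in N2, and 51.2 RPKM for set-32 met-2 set-25, against 10.3 RPKM in met-2 set-25. Without HRDE-1 the same bin had 119 RPKM in set-32 hrde-1, against 136 RPKM in hrde-1. At IV:8397001-8398000 the values were 57.7 RPKM in set-32, against 25.4 RPKM in N2, and 98.9 RPKM in set-32 hrde-1, against 85.3 RPKM in hrde-1. Both bins thus lay between N2 and the hrde-1 mutant in the set-32 library. At I:3150001-3151000 set-32 had 136 RPKM, above the 112 RPKM of hrde-1, and N2 had 50.2 RPKM.

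The interaction term asks whether the hrde-1 difference was smaller or larger where SET-32 was also lost. It was negative, that is the difference was smaller without SET-32, at 8 members and positive at 0 (limma, adjusted), against 0.0210% and 0.133% of all bins. At an unadjusted p under 0.05, 51 members were lower and 1 higher, against 1278 and 2675 of all bins tested. The median over the members was -0.38, beside 0.14 for all bins. By N2 level it was -0.15 in the lowest group, -0.45 in the middle and -0.43 in the highest. Unmarked bins of the same N2 ranges had medians of 0.27, -0.06 and -0.09. N2 itself enters this term, so these groups are a description only. The smallest adjusted p was at IV:8397001-8398000, where the hrde-1 difference was 1.71 in the N2 background and 3.64 in met-2 set-25, against 0.77 in set-32 and -0.41 for set-32 met-2 set-25. Its interaction was -2.49 ± 0.49 (log2, SE, limma adjusted p 0.00409). Of the other 7, IV:10354001-10355000, II:7083001-7084000, II:12283001-12284000 and IV:8398001-8399000 had terms of -1.88 to -1.99. The remaining members that passed were I:10784001-10785000 and its neighbour I:10785001-10786000, with terms of -2.13 and -1.81, and IV:2647001-2648000, with -2.15.

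Single libraries moved these calls. The full combination was lower than met-2 set-25 hrde-1 at each of the 8 members, though over the whole list it was higher at only 46 of 215. Leaving out met-2 set-25 hrde-1 left 0 members past the threshold, and leaving out the full combination left 0 negative and 1 positive. Without N2, 3 were negative, 2 of them among the 8, and without met-2 set-25, 2 were, 1 of them among the 8. Without set-32, 5 were negative, with 4 of the 8 among them. Without hrde-1, 19 were negative, including all 8. Without set-32 hrde-1, 9 were, and likewise 9 negative and 1 positive without set-32 met-2 set-25, each time with 5 of the 8. Negative calls over all bins in these 3 fits numbered 99, 40 and 121, and positive ones 337, 148 and 543. With all libraries 21 of all bins were negative and 133 positive. With both evenly covered libraries left out, 15 were negative, including all 8, and 8 other members were positive. Of all bins, 177 were negative and 818 positive in that fit, against 21 and 133 with all libraries. With quantile normalization, with centred libraries, with a minimum of 5 RPKM, or without an intensity trend, 0 passed. No interaction was fitted with a term for the description prefix.

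Loss of MET-2 together with SET-25 went with less Pol II at some members that were high in N2. With limma 8 members fell and 0 rose, against 0.127% and 0.318% of all bins. At an unadjusted p under 0.05, 62 were lower and 9 higher, against 8041 and 26946 of the 100027 bins tested. The median log2 difference of the members was -0.26, while that of all bins was 0.40. The difference followed the level in N2, in unmarked bins too. N2 itself enters this difference, so bins high in N2 tend to fall by construction, and the relation is not independent evidence. The median difference was -0.46 in the 72 members of the highest group by N2 level, beside -0.36 in unmarked bins of that range. It was -0.28 in the middle group, beside -0.14, and 0.08 in the lowest, beside 0.55. All 8 were in the highest group, 11.1% of its members, against 0.716% of the unmarked bins of that range, and none was GRTS. The largest was at IV:10355001-10356000, with 8.32 RPKM for met-2 set-25, 26.3 for set-32 met-2 set-25, 38.8 for met-2 set-25 hrde-1 and 20.2 for the full combination, against 41.9 for N2, 82.0 for set-32, 54.6 for hrde-1 and 51.3 for set-32 hrde-1. Every library without MET-2 and SET-25 was below every library with them, and the log2 difference was -1.40 ± 0.29 (SE, limma adjusted p 0.0248).

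The smallest adjusted p was at I:4467001-4468000, beside the bin of I that had a low hrde-1 estimate. There the libraries without MET-2 and SET-25 averaged 10.9 ± 5.74 RPKM and those with them 26.8 ± 3.09 RPKM (SD, n = 4 each), with a log2 difference of -1.34 (limma adjusted p 0.00403). The other 6 were I:250001-251000, I:2630001-2631000, IV:4191001-4192000, IV:6354001-6355000 and the neighbours III:7679001-7680000 and III:7680001-7681000, with differences of -0.84 to -0.95. These calls were not stable. Leaving out met-2 set-25 hrde-1 or N2 gave 71 or 22 members that fell. Of all bins, 7479 or 1909 fell in these fits, against 127 with all libraries. Without hrde-1, 2 members fell, without set-32 only 1, without met-2 set-25 again 1, without set-32 met-2 set-25 again 2 and without the full combination 5. No member fell with quantile normalization, with a minimum of 5 RPKM, without an intensity trend or without both evenly covered libraries. With the 4 matched backgrounds as a block, 25 fell, including all 8, and 2 rose, IV:527001-528000 and II:13249001-13250000. Of all bins, 1471 fell and 2743 rose in that fit.

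By pair, 26 members were lower in met-2 set-25 than in N2 (0.480% of all bins) and 4 higher (0.738%). In set-32 met-2 set-25 against set-32, 15 were lower (3.56%) and 9 higher (2.14%). Without HRDE-1, 0 were lower in met-2 set-25 hrde-1 than in hrde-1 (0.418%) and 2 higher (0.886%). In the full combination against set-32 hrde-1, 40 were lower (2.76%) and 1 higher (1.76%). The 26 members had a median of 7.74 RPKM in met-2 set-25, against 19.9 RPKM in N2. In the hrde-1 mutant background their medians were 27.8 RPKM for met-2 set-25 hrde-1 and 30 RPKM for hrde-1. The difference of these members was thus seen with HRDE-1 present and not without it in that pair, although they were chosen in the first of the 2 pairs. The libraries met-2 set-25 and N2 share a description prefix, while met-2 set-25 hrde-1 and hrde-1 do not. HRDE-1 loss and prefix therefore cannot be told apart in this comparison. The full combination and set-32 hrde-1 share a prefix, and that is the pair with 40 members lower.

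Whether the hrde-1 difference depended on MET-2 and SET-25 gave no call in the list. With limma 0 members passed in either direction, against 0% higher and 0.00100% lower of all bins. At an unadjusted p under 0.05, 6 were higher and 20 lower, against 829 and 1600 of the 100027 bins tested. The smallest p-values were at IV:527001-528000 and the neighbours II:13248001-13249000 and II:13249001-13250000, with terms of -2.45, -2.29 and -2.10 (limma adjusted p 0.0571, 0.0629 and 0.135). At IV:527001-528000 Pol II was 64.4 RPKM in met-2 set-25 hrde-1, against 10.7 RPKM in met-2 set-25, and 70.3 RPKM in hrde-1, against 2.70 RPKM in N2. Leaving out any 1 library gave 1 to 7 members past the threshold. Of all bins, 4 to 69 were higher and 30 to 281 lower in these fits, against 0 and 1 with all libraries.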

How the data were processed

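Pol II ChIP-seq was read in 8 of 11 samples. The values are RPKM per 1 kb bin, made and deposited by the authors. The submitters' processing notes name Bowtie 0.12.7, an aligner. The genome build and any filters are not stated there. Of 43 library columns in the table, 35 match no sample's label and were not used. The GRH and GRTS marks are the table's own. GRH bins, classes and lists were chosen with earlier results of these data known.

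Each bin with a mean of at least 2 RPKM was fitted with limma 3.58.1 (R 4.3.3, intensity trend, two-sided) on log2(RPKM + 1), with hrde-1, set-32 and met-2 set-25 as additive terms over 8 libraries (4 residual degrees of freedom). P-values were Benjamini-Hochberg adjusted over all 100027 bins. Fold changes are on that scale, which understates changes of low bins. With no replicate, the residual spread of the additive model served as error. An interaction was 1 added product term (3 residual degrees of freedom). The script was tested on simulated data.

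Depth was estimated from the step between low RPKM values, 83.0% to 84.4% of which were whole reads (tolerance 0.1 read) in each library. Because of the fractions no count model was used. Counting errors cover counting only. No 2 libraries held identical values. Bins were named by a rule: the 10 largest and 10 smallest hrde-1 differences, the largest per chromosome, the 5 highest and 5 lowest in N2, the 5 longest runs, and for the other terms those past the threshold or, with none, the 3 largest in each direction (for an interaction up to 5, or the 3 with the smallest p). Classes by run length, arm or centre and whole reads were added after seeing the data. Summaries used pandas 2.3.3 and numpy 2.4.6 under Python 3.11.15, and figures matplotlib 3.10.9.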

Additional observations from a re-analysis of the deposited data

Results flagged for a closer look

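Of 106 sets of 4 libraries, 6 held a library far from the other 3 (by the gap to the next library over the range). The sets came from the named bins and from the medians of classes of GRH bins. By chance about 1 in 20 is flagged, and 6 of 106 is near that rate. At III:6646001-6647000 set-32 hrde-1 had 83.18 RPKM, against 21.4 to 31.3 RPKM in the other libraries without HRDE-1. At X:255001-256000 the same library had 23.68 RPKM, against 0.82 to 3.47 RPKM. The full combination was the outlying library without HRDE-1 in 3 bins, with 48.93 RPKM at II:13247001-13248000 (103 to 111 RPKM in the others), 13.05 RPKM at IV:10354001-10355000 (27.0 to 27.6 RPKM) and 6.85 RPKM at V:12690001-12691000 (2.80 to 3.49 RPKM). At II:7083001-7084000 set-32 had 48.76 RPKM, against 13.7 to 19.3 RPKM in the other libraries with HRDE-1.

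In 8 bins the hrde-1 difference was smaller where SET-32 was lost as well, by the limma interaction term. On chromosome IV the terms were -2.49 at IV:8397001-8398000, -1.99 at IV:8398001-8399000, -1.88 at IV:10354001-10355000 and -2.15 at IV:2647001-2648000. On I and II they were -2.13 at I:10784001-10785000, -1.81 at I:10785001-10786000, -1.91 at II:7083001-7084000 and -1.98 at II:12283001-12284000. The adjusted p lay between 0.00409 and 0.0485. All 8 also passed, with the same sign, when both evenly covered libraries were left out. That fit called more bins everywhere, 818 positive and 177 negative of all bins, against 133 and 21 with all libraries. No negative call was left with quantile normalization, with centred libraries, with a minimum of 5 RPKM or without an intensity trend. The same held when met-2 set-25 hrde-1 or the full combination was left out.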

How the results depend on the processing

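Replicate numbers pair no libraries, since each genotype had 1. The genotypes do pair them, so each mutation was also fitted with its 4 matched backgrounds as a block, an alternative chosen after seeing the data. That gave 93 members higher with hrde-1 loss, all among the 97, 0 with set-32 loss, and 25 lower and 2 higher with met-2 set-25 loss. Of all bins, 1471 were lower and 2743 higher with met-2 set-25 loss in that fit. The count of GRH bins that rose with hrde-1 loss was 97, and 76 to 108 with a library left out, 43 without an intensity trend, and 75 to 100 under the remaining settings. None fell under any setting. Without the trend the counts were 21 for members without GRTS, 10, 12, 1 and 6 on chromosomes I, II, III and IV, and 22, 7 and 5 for flanking bins at 1, 5 and 10 kb. Leaving out a library gave 25 GRTS members each time, 51 to 83 others, 16 to 29, 19 to 28, 7 to 11, 12 to 19, 18 to 21 and 0 members on I, II, III, IV, V and X, and 49 to 73, 11 to 19 and 8 to 16 flanking bins. Quantile normalization gave 15 on chromosome I and 9 at 10 kb, as did a minimum of 5 RPKM at 10 kb, 9.

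A library left out moved the medians of the log2 difference to 0.54 to 0.85 (hrde-1), -0.09 to 0.12 (set-32), -0.35 to -0.16 (met-2 set-25), 2.82 to 3.36 (GRTS members) and 0.40 to 0.74 (others). The GRTS median was 2.65 with a pseudocount of 5, 3.44 with a term for the description prefix, and 3.43 when both evenly covered libraries were left out. Splitting at 5 kb from a GRTS bin gave 51 and 46 members that rose, and a median of 1.67 within 5 kb. Centring moved the met-2 set-25 median to -0.76, with 43 members and 5790 of all bins lower. The counts lower with met-2 set-25 loss and with an interaction of hrde-1 and set-32 were 3 and 4 with a pseudocount of 0.5, 14 and 13 with 5, and 0 and 0 with a minimum of 5 RPKM, with quantile normalization and without the trend. Centring gave 0 interactions. Without both evenly covered libraries they were 0 and 23, and 1 for hrde-1 with met-2 set-25. A library left out gave 1 to 71 members lower with met-2 set-25 loss (30 to 7479 of all bins) and 0 to 4 higher. With set-32 loss it gave 0 higher and 0 to 1 lower. Interactions with set-32 and met-2 set-25 numbered 0 to 19 and 1 to 7. Of all bins, those with set-32 were negative at 2 to 121 and positive at 27 to 543. For met-2 set-25 the ranges over all bins were 30 to 281 and 4 to 69. Runs as units gave 48. At a log2 difference of 2 the pairs gave 36, 38, 45 and 12, and centring gave 9 members higher in both set-32 pairs. The causes were not tested. For named bins 821 values kept their side of the threshold, 130 were lost, 39 gained and 0 reversed. Depth of 3.0 M reads limits low bins most.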
